A study of Gallus gallus with 12 samples.

Results

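SLC4A7, BMP2 and CPLX4 are 3 genes of the chick pineal gland that were chosen by their response to a light pulse early in the subjective night, as measured on these same arrays. They are 3 of 13009 named genes. All probe sets that the array annotation assigns to 1 of them alone were taken, 8 of 38439: 4 for SLC4A7, 3 for BMP2 and 1 for CPLX4. Of these 8, 6 had a mean high enough to be tested, among 23063 tested probe sets. Male chicks 8 days old had lived for 7 days under 12 h of light per day and then spent a day in constant darkness. A light pulse of 1 h was given from circadian time (CT) 6, in the subjective day, from CT14, early in the subjective night, or from CT22, late in it, and glands were taken when it ended. The groups were CT6 light and CT6 dark, CT14 light and CT14 dark, and CT22 light and CT22 dark, where dark glands had no pulse, with 2 Affymetrix arrays per group and 12 in all. Each array carried labelled RNA pooled from 6 glands, so the spread between single birds is not seen, and the labels name no allele or drug.

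SLC4A7 encodes NBCn1, a membrane protein that carries sodium and bicarbonate together into the cell and so raises its internal pH. In mammals it is known from photoreceptors, neurons and kidney epithelium. BMP2 is a secreted growth factor of the bone morphogenetic protein (BMP) family. It binds type I and type II receptor kinases, which phosphorylate SMAD proteins, and these enter the nucleus and switch on genes such as those of the ID family. CPLX4 is a complexin, a small protein that binds the assembled SNARE complex and so tunes the fusion of synaptic vesicles. In the mammalian retina it belongs to the ribbon synapses of photoreceptors, which are related to the light-sensitive pinealocytes of birds.

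Labelled tissue and arrays were checked first. Of 11 pinealocyte markers, 9 were tested, among them the melatonin synthesis genes TPH1 and ASMT, with log2 means of 13.2 and 12.7 in CT14 light glands and 13.2 and 12.5 in CT14 dark glands. Median intensity per array as deposited ranged between 20.1 and 28.9, and replicate arrays correlated with r between 0.931 and 0.942 over all probe sets. Actin probe sets at both ends of its mRNA, whose ratio (3-prime over 5-prime) grows as RNA degrades, differed between the CT14 groups. That ratio was 3.28 and 3.09 in CT14 light arrays and 4.67 and 3.95 in CT14 dark arrays, and the other 8 arrays lay between 3.62 and 4.23. TTR, a marker of choroid plexus, was also high, with log2 means of 12.95 in CT14 light glands and 12.98 in CT14 dark glands. The 4 tested choroid plexus markers summed to 8582 to 8609 units in CT14 light arrays. TTR made up most of that sum, so the other markers of this list were far lower.

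At CT14 the 3 genes stood at their lowest level of all 6 groups in dark glands, and after 1 h of light each lay 2.87 to 3.61 times as high. These values chose the genes, so they are given as a description with no test. The probe set of highest signal stands for each gene. That of SLC4A7 read 1721 and 1686 in CT14 light arrays, against 535 and 502 in CT14 dark arrays, as normalized intensity. BMP2 read 624 and 658 in CT14 light arrays, against 167 and 188 in CT14 dark arrays. For CPLX4 the CT14 light arrays gave 1024 and 1021, and the CT14 dark arrays 346 and 367. Light and dark arrays of CT14 did not overlap for any of the 3 genes, which their choice by this difference would favour. The share of all probe sets without overlap was not counted. On the log2 scale light minus dark at CT14 was 1.72 ± 0.07 for SLC4A7, 1.85 ± 0.11 for BMP2 and 1.52 ± 0.08 for CPLX4, where the error is the standard error (SE) that limma gave from all 12 arrays. By size of this difference BMP2 ranked 34th, SLC4A7 45th and CPLX4 80th from the highest among 23063 probe sets. In a bulk gland, fewer cells that express a gene and less of its RNA per cell cannot be told apart.

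**Figure D1:**
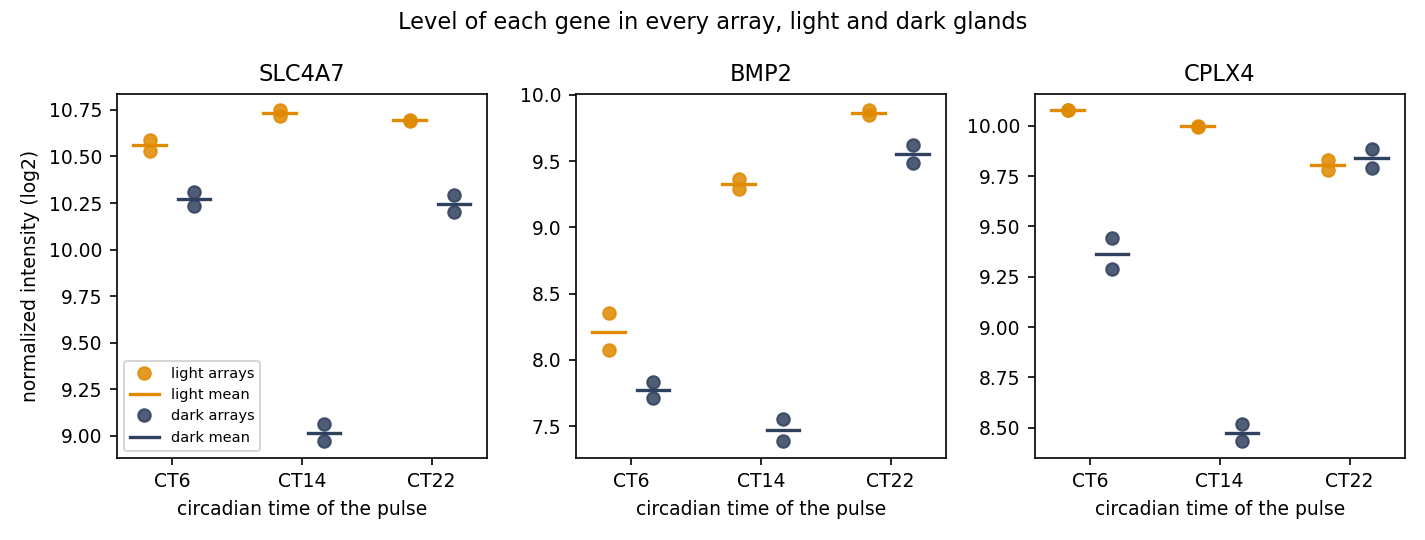
Normalized intensity (log2) of SLC4A7, BMP2 and CPLX4 in each array, with the 3 circadian times on the horizontal axis, light arrays left of dark arrays, points for arrays and bars for the mean of 2. In all 3 panels the CT14 dark arrays lie lowest, and the CT14 light arrays lie at 10.7 for SLC4A7, 9.32 for BMP2 and 9.998 for CPLX4.

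The other times were set beside CT14. For SLC4A7, light arrays read 1479 and 1541 at CT6, 1721 and 1686 at CT14, and 1661 and 1655 at CT22. Dark arrays of SLC4A7 read 1205 and 1270 at CT6, 535 and 502 at CT14, and 1253 and 1176 at CT22. The CT14 dark arrays thus lay apart from the other 10, and the light arrays of the 3 times lay between 1479 and 1721. On the log2 scale the 6 group means, from the lowest, were CT14 dark (9.02), CT22 dark (10.25), CT6 dark (10.27), CT6 light (10.56), CT22 light (10.70) and CT14 light (10.73). CT22 dark and CT6 dark overlapped, and the steps between the 3 light groups were small, 0.13 and 0.04. The CT14 dark mean of SLC4A7 was lower by 1.26 than that of CT6 dark and by 1.23 than that of CT22 dark. Both differences share their CT14 dark arrays with the light effect at that time. The order above is that of the leading probe set. In the second, CT22 light (9.90) lay above CT14 light (9.75), and CT22 dark (9.53) above CT6 dark (9.14) and CT6 light (9.42). In the third, CT22 light (5.64) also lay above CT14 light (5.52), but CT22 dark (5.16) lay below CT6 dark (5.28).

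The leading probe set of BMP2 followed another course through the dark day than that of SLC4A7. Its light arrays read 327 and 269 at CT6, 624 and 658 at CT14, and 945 and 921 at CT22. Its dark arrays read 210 and 228 at CT6, 167 and 188 at CT14, and 788 and 718 at CT22. BMP2 was therefore low at CT6 and CT14 in darkness and high at CT22, and after a pulse at CT14 it lay near the level of CT22 dark glands. CT14 light was not tested against CT22 dark. Its mean was the lower of these in the leading probe set. In the second, dim probe set of BMP2 it was the higher, at 4.59 against 4.37 (log2). In log2 group means the order was CT14 dark (7.47), CT6 dark (7.77), CT6 light (8.21), CT14 light (9.32), CT22 dark (9.55) and CT22 light (9.87), and no neighbours in it overlapped. The closest neighbours were CT14 light and CT22 dark, 0.23 apart. With 2 arrays per group, neighbours sorted by mean can fail to overlap by chance. The share of all probe sets with such an order was not counted, so the order is a description only.

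CPLX4 differed from both. Its light arrays read 1079 and 1080 at CT6, 1024 and 1021 at CT14, and 909 and 880 at CT22. Its dark arrays read 695 and 625 at CT6, 346 and 367 at CT14, and 945 and 886 at CT22. Light arrays spanned 880 to 1080, highest at CT6 and lowest at CT22, while dark arrays spanned 346 to 945. The light groups were not tested against each other. At CT22 light and dark arrays overlapped. The log2 means, from the lowest, were CT14 dark (8.48), CT6 dark (9.36), CT22 light (9.80), CT22 dark (9.84), CT14 light (9.998) and CT6 light (10.08). Only CT22 light and CT22 dark overlapped in this order, and the CT14 light and CT6 light means were 0.08 apart. As for BMP2, neighbours sorted by mean can fail to overlap by chance with 2 arrays per group, so this order too is a description only.

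Light effects at CT6 and CT22 were tested, since their arrays do not enter the CT14 difference. The choice of these genes for the early night may have weighed those effects too, so the tests are not fully independent of it. All p-values are from limma, with Benjamini-Hochberg adjustment across the 23063 tested probe sets and a threshold of 0.05; they rest on 2 pools per group. At CT6, CPLX4 rose in light by 0.71 ± 0.08 (SE, adjusted p = 8.87e-04), a fold of 1.64. It was the 1 probe set of 6 that passed higher at CT6, where 0.178% of all tested probe sets passed higher and 0.0434% lower. This call was lost in the fit without a variance trend (adjusted p = 0.143). No tested cell type marker passed at CT6, but the sums of 2 marker lists did not overlap there. With 2 arrays per group, some lists can fail to overlap by chance, and a sum is led by its brightest genes. The 5 glia markers summed to 1251 to 1329 in CT6 light arrays and 1383 to 1430 in CT6 dark arrays, and the 6 endothelium and mural markers to 2156 to 2231 in CT6 light arrays and 1977 to 2025 in CT6 dark arrays. The part of these markers in the CT6 value of CPLX4 was not tested. SLC4A7 at 0.29 ± 0.07 (adjusted p = 0.107) and BMP2 at 0.44 ± 0.11 (adjusted p = 0.1199) did not pass at CT6. Their light arrays lay above both dark arrays there, but the share of all probe sets without overlap was not counted. With 2 arrays per group, nothing is read from that order. The 95% intervals of the difference, not adjusted for the number of probe sets, were 0.14 to 0.43 for SLC4A7 and 0.21 to 0.67 for BMP2. With arrays centred on their median in place of quantile normalization both passed, with 0.49 for SLC4A7 (adjusted p = 0.00701) and 0.56 for BMP2 (adjusted p = 0.0298).

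At CT22, SLC4A7 rose in light by 0.45 ± 0.07 (SE, adjusted p = 0.00251 in limma), a fold of 1.37. Counting its second probe set, 2 of the 6 tested probe sets passed higher and none lower at CT22, where 1.73% of all tested probe sets passed higher and 1.92% lower. That call of SLC4A7 was lost in the values as deposited and in the fit without a variance trend. BMP2 at CT22 gave 0.31 ± 0.11 (adjusted p = 0.137) and did not pass. Its light arrays lay above its dark arrays, but again the share of all probe sets without overlap was not counted. CPLX4 at CT22 gave -0.03 ± 0.08, with a 95% interval of -0.20 to 0.13 (adjusted p = 0.886). The light effect of CPLX4 at CT22 minus that at CT6 was -0.75 ± 0.11 (limma adjusted p = 0.0114), and 0.247% of all tested probe sets passed in this comparison in either direction. Of 20 alternatives, 6 lost this call, including the fits without the second CT6 light array, the first CT22 dark array or the second CT22 light array. The same difference was 0.16 ± 0.09 for SLC4A7 (adjusted p = 0.571) and -0.13 ± 0.15 for BMP2 (adjusted p = 0.823).

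**Figure D2:**
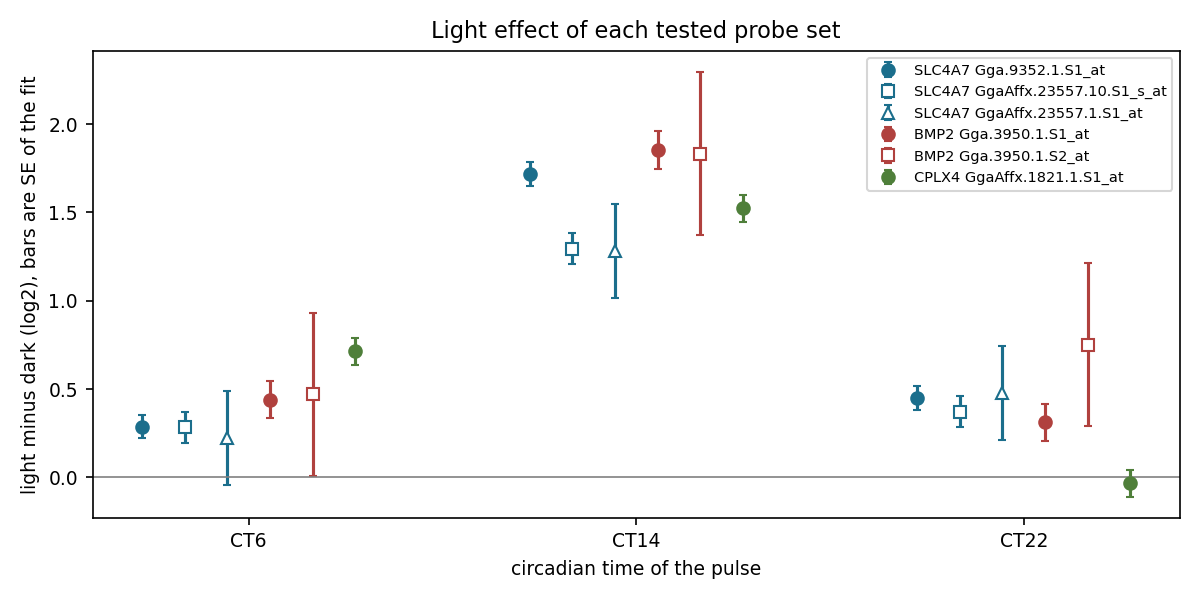
Light minus dark (log2) of the 6 tested probe sets at CT6, CT14 and CT22, with bars for the SE of the fit and open symbols for further probe sets of a gene. At CT14 all 6 lie between 1.28 and 1.85, while at CT22 the probe set of CPLX4 lies at -0.03.

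Time of day in constant darkness was compared between CT22 and CT6, whose arrays play no part in the CT14 values. The same dark arrays do enter the CT6 and CT22 light effects, which the choice of these genes may have weighed. These tests are therefore not fully independent of that choice. BMP2 was higher at CT22 than at CT6 by 1.78 ± 0.11 (SE, adjusted p = 2.81e-06 in limma), a fold of 3.44 between dark groups. CPLX4 was higher at CT22 by 0.47 ± 0.08 (adjusted p = 0.00795), a call that was lost without the second CT6 dark array (adjusted p = 0.0895) or the first CT22 dark array (adjusted p = 0.112), and also without a variance trend. For SLC4A7 the dark difference was -0.03 ± 0.07, with a 95% interval of -0.17 to 0.12 (adjusted p = 0.936). In all, 2 of the 6 tested probe sets passed higher and none lower, where 0.603% of all tested probe sets were higher and 0.503% lower at CT22. In the values as deposited, where the median of all tested probe sets moved by 0.28 between these dark groups, SLC4A7 gave 0.28 and did not pass.

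The further tested probe sets of SLC4A7 and BMP2 were also higher in light than in dark at CT14. They were read on the arrays that chose the genes, so this is a description and no separate support. For SLC4A7 the second probe set gave 1.30 ± 0.09 and the third, with a lower signal, 1.28 ± 0.27. The second of BMP2 gave 1.83 ± 0.46 at a mean log2 signal of 3.88, just above the limit of 3.73 for testing. Its means in CT14 dark (2.75), CT6 dark (2.98) and CT6 light (3.45) lay under that limit. It thus entered the tests only through the groups where it was higher. It did not pass between the dark groups of CT22 and CT6, with 1.39 ± 0.46 (limma adjusted p = 0.234). In the dark the second probe set of SLC4A7 gave 0.39 ± 0.09 for CT22 minus CT6 (adjusted p = 0.0527), opposite in sign to the leading one. The probe sets below the limit were 1 of SLC4A7, with a mean of 3.53, and 1 of BMP2, with a mean of 0.76. That of SLC4A7 gave 2.47 at CT14 over a range of 1.00 to 19.9 units, and that of BMP2 gave -0.24 over 1.46 to 2.04 units, values too low for a direction to be read.

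RNA quality and some cell type markers differed between the CT14 groups. In a fit that holds the actin ratio, light minus dark at CT14 was 1.78 ± 0.13 for SLC4A7, 1.83 ± 0.21 for BMP2 and 1.36 ± 0.14 for CPLX4. Of 9 tested pinealocyte markers, 1 rose at CT14 in limma, RBP3, a retinoid carrier of photoreceptors, by 1.17 (adjusted p = 0.00885). The summed level of the 9 was 28169 to 29292 in CT14 light arrays and 26073 to 26839 in CT14 dark arrays. Of 7 markers of fibroblasts and meninges, COL1A1, a collagen chain, rose by 0.84 (adjusted p = 3.39e-04), with sums of 9469 to 9913 in CT14 light arrays and 8379 to 9136 in CT14 dark arrays. Of 5 tested glia markers, OLIG2, a factor of the oligodendrocyte lineage, fell by 0.88 (adjusted p = 0.0101), with sums of 1275 to 1362 in CT14 light arrays and 1163 to 1508 in CT14 dark arrays. No tested marker of neurons, endothelium and mural cells, macrophages, lymphocytes, erythrocytes or choroid plexus passed at CT14. Beside these marker counts, 1.14% of all tested probe sets passed higher and 0.529% lower at CT14. The sums of 2 of the lists without a call did not overlap: 6 neuron markers gave 2817 to 2818 in CT14 light arrays and 2471 to 2675 in CT14 dark arrays, and 4 erythrocyte markers gave 6001 to 6461 in CT14 light arrays and 8205 to 8821 in CT14 dark arrays. As at CT6, some lists can fail to overlap by chance with 2 arrays per group. The part of RNA quality and of these markers in the CT14 values of SLC4A7, BMP2 and CPLX4 was not tested.

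None of the listed genes that act beside BMP2 passed higher at CT14. Of 50 listed genes of BMP signalling other than BMP2, 40 were tested. At CT14 0 of them passed higher and 1 lower, where 1.14% of all tested probe sets passed higher and 0.529% lower. With shares this low, few if any calls would fall among 40 genes. An unadjusted p under 0.05 in limma was seen for 8 of the 40. The share of all tested probe sets under that unadjusted limit was not counted. No excess can thus be read from such counts, here or for the lists below. The median of the 40 was -0.07, beside 0.00 over all tested probe sets. The 1 that fell was BAMBI, which encodes a pseudoreceptor without a kinase that dampens BMP and TGF-beta signalling. BAMBI read 527 and 475 in CT14 light arrays, against 1050 and 904 in CT14 dark arrays, and fell by 0.96 on the log2 scale (SE 0.14, limma adjusted p = 0.00261). Held at an equal actin ratio, BAMBI gave -0.41 with a larger SE of 0.21 (adjusted p = 0.807), and without a variance trend its call was lost too (adjusted p = 0.0793).

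By role, the other BMP ligands BMP4, BMP6 and BMP7 gave light minus dark values of 0.09, 0.04 and 0.16 at CT14. The 3 other tested ligands, BMP3, BMP5 and GDF5, lay at -0.40, -0.30 and -0.05, so 3 of the 6 were above 0, with a median of -0.01, and none passed. Mean log2 signals were 4.18 for BMP4, 4.74 for BMP6, 4.55 for BMP3 and 3.85 for GDF5, where the limit for testing was 3.73. Those of BMP7 and BMP5 were higher, at 8.68 and 6.28. For the ligands near the limit, the lack of a call says little about a response to light. The receptors BMPR1A, BMPR1B, BMPR2 and ACVR1 gave 0.14, -0.14, -0.30 and 0.02. SMAD1 and SMAD5, which carry the signal, gave 0.13 and 0.19, and the inhibitory SMAD6 and SMAD7 gave 0.31 and -0.01. The other tested probe set of SMAD5, with a lower signal, gave -1.10 (limma adjusted p = 0.126), opposite in sign. NOG, a secreted antagonist, gave 0.73 ± 0.54 at a low signal. None of these receptors, SMAD genes or antagonists named here passed at CT14.

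Among BMP target genes the ID family was measured at each time. ID1, ID2 and ID3, repressors of helix-loop-helix factors, gave 0.16, 0.10 and -0.29 at CT14, and none passed. At CT22, ID1 rose by 0.82 ± 0.11 (SE, limma adjusted p = 0.00121), with 1070 and 1260 in light arrays and 613 and 702 in dark arrays, and its call was lost without a variance trend (adjusted p = 0.0524). ID3 rose at CT22 by 0.69 ± 0.09 (adjusted p = 0.00126), with 484 and 561 in light arrays and 306 and 342 in dark arrays. ATOH8, a helix-loop-helix factor, rose by 0.56, with its call lost in 10 of 21 alternatives, and ID4 fell by 0.36, with its call lost in 5. Of the 9 tested target genes, 3 thus passed higher and 1 lower at CT22, where 1.73% of all tested probe sets passed higher and 1.92% lower, while BMP2 did not pass there. Among BMP antagonists NBL1 fell at CT22 by 0.45, a call lost in 7 of 21 alternatives, among them leaving out any 1 of the 4 CT22 arrays (adjusted p 0.0689 to 0.139). Over all 40 genes of BMP signalling 3 rose and 2 fell at CT22, with a median of 0.00, and at CT6 0 passed in limma, with 3 at an unadjusted p under 0.05, beside shares of 0.178% higher and 0.0434% lower over all tested probe sets at that time. ID2 gave 0.82 at CT6 (adjusted p = 0.0664).

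The relatives of SLC4A7 in the bicarbonate transporter family did not pass the threshold. At the shares over all probe sets given below, few if any calls would fall among so few genes. Of 9 other SLC4 genes on the list, 8 were tested, and 0 passed at CT6, CT14 or CT22, where 1, 2 and 0 had an unadjusted p under 0.05 in limma. SLC4A4 and SLC4A10, sodium bicarbonate carriers, gave 0.28 and 0.22 at CT14, and SLC4A5, another, gave -0.08. Mean log2 signals were 5.16 for SLC4A4, 7.53 for SLC4A10 and 4.15 for SLC4A5, where the limit for testing was 3.73. At the low signal of SLC4A5, the lack of a call says little. The tested probe set of SLC4A4 with the middle signal lay at -0.41. SLC4A3, an anion exchanger, gave 1.48 ± 0.45 (adjusted p = 0.139) at CT14 with a dark mean of 3.34, and its other tested probe set gave -0.01. Carbonic anhydrases make bicarbonate from carbon dioxide. Of 8 tested, 0 passed at CT14 in limma (3 at an unadjusted p under 0.05), while at CT22 CA2, CA7 and CA9 rose and CA10, a member without catalytic activity, fell. CA2 rose at CT22 by 1.25 ± 0.23 (adjusted p = 0.00990), with 1805 and 1952 in light arrays and 560 and 1111 in dark arrays. The CA2 dark arrays thus lay far apart from each other, though below both light arrays. Its call was lost in 4 of 21 alternatives, and without the first CT22 dark array it gave 0.757 (adjusted p = 0.0515). CA7 and CA9 rose by 1.21 and 0.52, with calls lost in 10 and 6 of 21 alternatives, and CA10 fell by 0.52, with its call lost in 5. Other tested probe sets of CA10 gave 0.28 and -0.27 at CT22 and did not pass. SLC16A8, a lactate transporter, fell at CT22 by 0.32, with its call lost in 8 of 21 alternatives. Over the 28 tested genes of acid-base transport 0 passed at CT6 and 0 at CT14 in limma, with 4 and 6 at an unadjusted p under 0.05, and 3 rose and 2 fell at CT22. Over all tested probe sets the shares called were 0.178% higher and 0.0434% lower at CT6, 1.14% higher and 0.529% lower at CT14, and 1.73% higher and 1.92% lower at CT22. The medians of the 28 genes of acid-base transport were 0.06 at CT6, -0.03 at CT14 and -0.03 at CT22.

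For CPLX4, the listed genes of vesicle release gave no call at CT6 or CT14. Of 3 other complexins listed, 1 was tested, CPLX3, which with CPLX4 serves ribbon synapses of the mammalian retina. It gave 0.48 ± 0.20 at CT14 (limma adjusted p = 0.287) and -0.63 at CT22 (adjusted p = 0.106). SNAP25, a SNARE protein, and SYT1, a calcium sensor of release, gave 0.03 and 0.08 at CT14. SYT2, a related sensor, lay at -1.57 at CT14 with an SD of 1.48 between its CT14 light arrays, and did not pass. Of 25 tested genes of vesicle release, 0 passed at CT6 and 0 at CT14 in limma. An unadjusted p under 0.05 was seen for 5 at CT6 and 4 at CT14. Among all tested probe sets 0.178% passed higher and 0.0434% lower at CT6, and 1.14% higher and 0.529% lower at CT14. At shares this low, few if any calls would fall among 25 genes. At CT22, 5 of the 25 fell and 0 rose, where 1.92% of all tested probe sets passed lower and 1.73% higher. The median over the 25 was -0.17 at CT22. RIMBP2, which links calcium channels to release sites, fell at CT22 by 0.82 (adjusted p = 3.13e-04). CACNA1D, a calcium channel, fell by 0.74, a call lost in 3 of 21 alternatives, and without the second CT22 light array it gave -0.478 (adjusted p = 0.0833). The vesicle membrane proteins SYP and SV2B fell by 0.60 and 0.52, with calls lost in 5 and 4 alternatives. DOC2B, a calcium sensor, fell by 0.44, with its call lost in 10 of 21 alternatives. The other 3 tested probe sets of RIMBP2 did not pass at CT22. RIMS1 and NAPB, list genes counted as not called, each had a probe set of lower signal that passed lower at CT22. These gave -0.71 for RIMS1 (limma adjusted p = 0.00127) and -0.41 for NAPB (adjusted p = 0.0292). The probe sets that stand for RIMS1 and NAPB gave 0.26 and -0.24. CPLX4 itself gave -0.03 at that time.

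Summed levels of some marker lists did not overlap between the CT22 groups, which with 2 arrays per group can arise by chance. The 9 pinealocyte markers summed to 25112 to 26828 in CT22 light arrays and 29144 to 29990 in CT22 dark arrays, with 3 lower, and the 5 glia markers to 1197 to 1214 in CT22 light arrays and 1468 to 1492 in CT22 dark arrays, with 1 higher and 2 lower. The 4 choroid plexus markers summed to 8291 to 8807 in CT22 light arrays and 7776 to 8169 in CT22 dark arrays, with 2 higher. The median light minus dark of these 4 markers was 0.55 (log2) at CT22. The 6 endothelium and mural markers summed to 1870 to 1990 in CT22 light arrays and 2007 to 2124 in CT22 dark arrays, and the 6 lymphocyte markers to 332 to 418 in CT22 light arrays and 490 to 743 in CT22 dark arrays, with no call in either list. Of the 7 fibroblast and meninges markers 2 passed higher at CT22, and their sums overlapped. Beside these marker counts, 1.73% of all tested probe sets passed higher and 1.92% lower at CT22. The part of these markers in the CT22 calls was not tested.

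**Figure D3:**
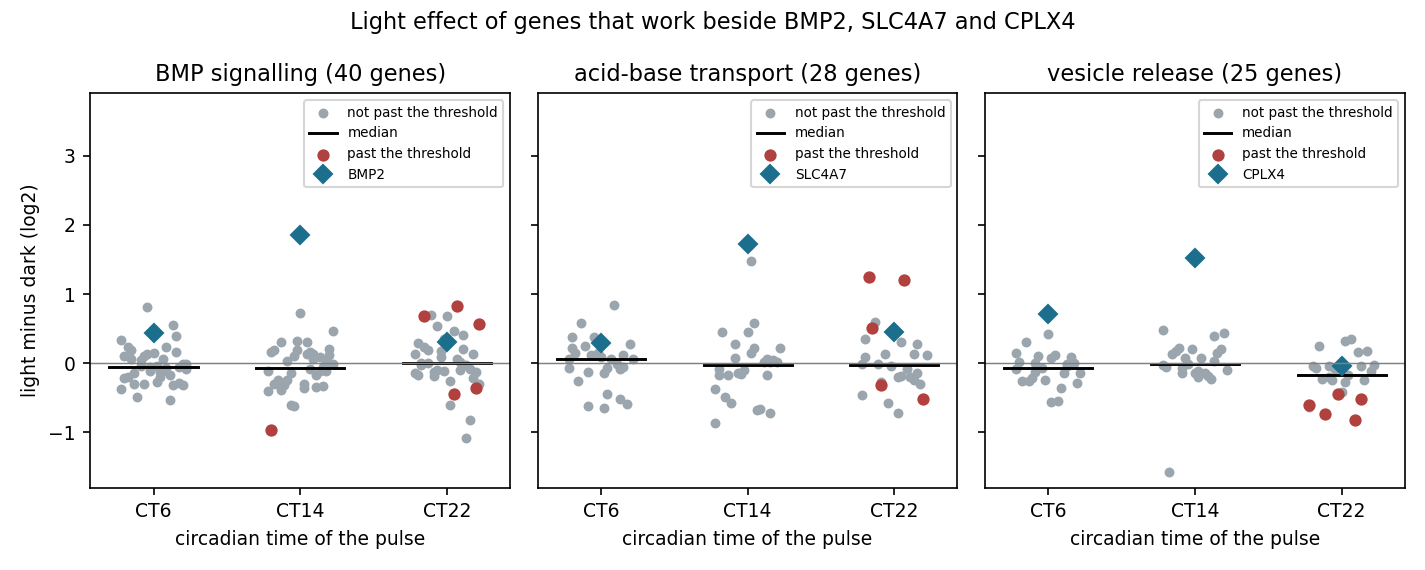
Light minus dark (log2) at CT6, CT14 and CT22 for the tested genes of BMP signalling (40), acid-base transport (28) and vesicle release (25), with a black bar for the median, red points past the threshold and a diamond for BMP2, SLC4A7 or CPLX4. At CT14 the diamonds lie at 1.85, 1.72 and 1.52, and BAMBI at -0.96 is the 1 other gene past the threshold there.

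In all, 15 of the 93 tested list genes were called at CT22, 6 higher and 9 lower. Of all tested probe sets, 1.73% passed higher and 1.92% lower at that time. Each list gene was taken by its tested probe set of highest mean, while such shares include dim probe sets. They are thus not a matched background for this or any list or marker count above. With the 60th percentile filter, which drops more dim probe sets, 1014 were called at CT22, against 398 higher and 442 lower with the main filter. The count of 15 list genes depended on single arrays. Without the first CT22 dark array 4 passed, without the second 6, without the first CT22 light array 7 and without the second 4. The light effect at CT22 minus that at CT14 passed for 11 of the 93, where 2.26% of all tested probe sets passed in either direction. All 11 use the CT14 groups, whose actin ratios differed, and none was run with that ratio in the fit.

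Genes that followed each member most closely were sought over the 12 arrays by Pearson correlation, a description that rests on shared arrays. For SLC4A7 and CPLX4 it rests much on the low CT14 dark pair. BMP2 instead stood highest at CT22, with log2 means of 9.55 in dark and 9.87 in light. Its CT14 dark and CT6 dark means were 7.47 and 7.77. SLC4A7 was followed most closely by RBP4, a retinol carrier near the top of the scale (r = 0.975), then by TPM1 (0.953), HIPK3 (0.952), NUFIP2 (0.936) and INSYN1 (0.933). Their light effects at CT14 ran from 0.60 for RBP4 to 1.94 for TPM1, beside 1.72 for SLC4A7. BMP2 was followed by PDLIM4 (r = 0.963), the mitochondrial carrier gene SLC25A25 (0.943), PDE6B, a phosphodiesterase subunit of phototransduction (0.919), ZNF207 (0.913) and the chaperone gene HSPA8 (0.908). Of these SLC25A25 came closest in size, with 1.36 for light minus dark at CT14 and 1.18 for CT22 minus CT6 in the dark. CPLX4 was followed by MACIR (r = 0.960), RBP4 (0.950), ANKRD33B (0.934), MMD (0.927) and PPP1R13B (0.923). MACIR gave 1.01 at CT6, 1.65 at CT14 and 0.44 at CT22, beside 0.71, 1.52 and -0.03 for CPLX4. RBP4 stood among the 5 of both SLC4A7 and CPLX4. Between the 3 genes r was 0.94 for SLC4A7 with CPLX4, 0.66 for SLC4A7 with BMP2 and 0.68 for CPLX4 with BMP2, with rank correlations of 0.67, 0.58 and 0.44. The CT14 arrays that chose the 3 genes enter these correlations, so part of this likeness was fixed by the choice.

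**Figure D4:**
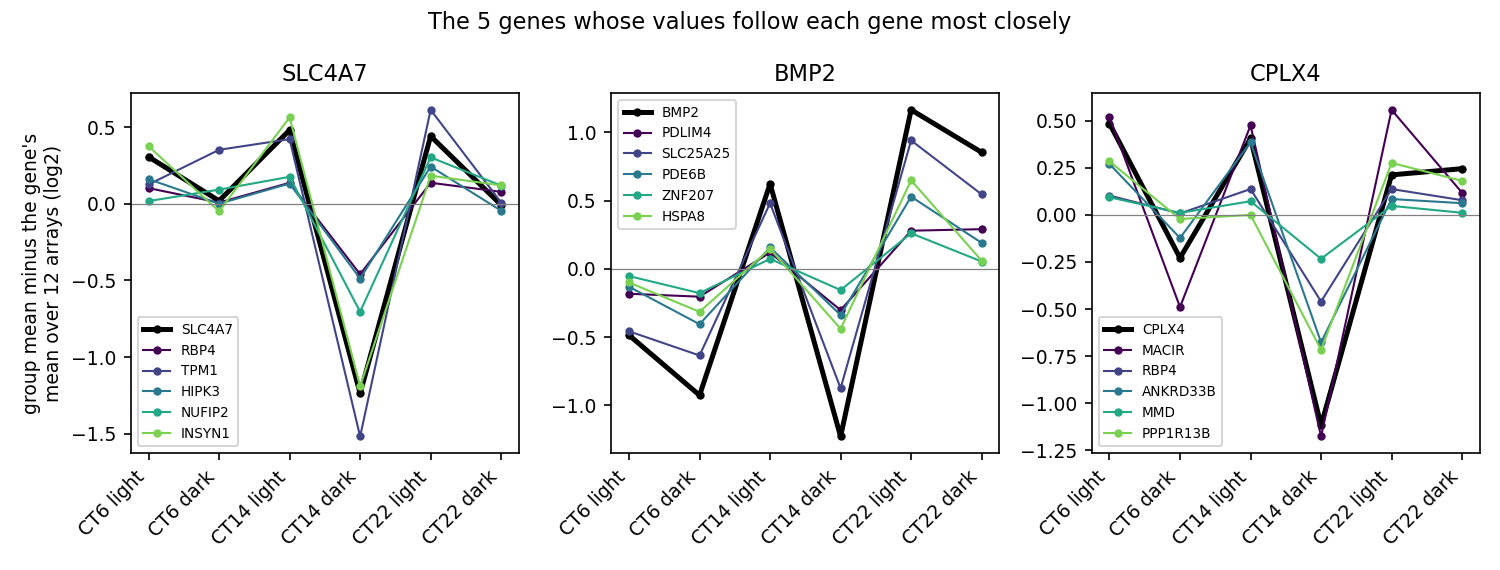
Group mean minus the mean over all 12 arrays (log2) for SLC4A7, BMP2 and CPLX4 (thick black) and the 5 genes with the highest Pearson r to each, over the 6 groups; lines only join the groups. Every line in the SLC4A7 and CPLX4 panels has its lowest point at CT14 dark, while in the BMP2 panel CT22 light lies at or near the top of each line.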

How the data were processed

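The values deposited are intensities on a linear scale, one for each probe set on each array, made from 9 micrograms of pooled total RNA with a one-cycle labelling kit per the labels. Which software summarised the probes, and with what scaling, is not given in the labels used here. All 38535 probe sets were taken to log2 and quantile normalized, since array medians differed by up to 0.52 (log2, against a limit of 0.2), and values under 1 were set to 1. Then 96 controls were dropped. Testing was limited to the 23063 probe sets (10406 genes) whose mean exceeded log2 3.73, the 40th percentile. Quantile normalization hides a change shared by most probe sets. Genes were named from the platform annotation, which gave 1 gene for 27168 probe sets, several for 177 and none for 11094; the probe set with the highest mean stands for a gene. A model of the 6 group means, with 6 residual degrees of freedom and a variance trend, was fitted in limma 3.58.1 (R 4.3.3) with Benjamini-Hochberg adjusted p, and was tested on simulated data. The number of arrays, 2 per group, limits the precision.

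The members and lists were chosen with earlier results of these data known. Named genes were all probe sets of the 3 members, the 5 genes most like each (symbols that start with LOC passed over), list genes past the threshold and a fixed set of pathway genes. SLC4A3, SYT2, BMP3, BMP5, GDF5, RIMS1 and NAPB were named after their values were seen. Of the fixed set, SLC4A8, CPLX1 and VAMP2 were below the limit for testing, and CPLX2 and STX3 were not analysed here. Listed genes were matched by symbol or synonym, 3 of them by synonym. Alternatives were the deposited scale, median centring, 2 other filters, 16 added before log2, no variance trend, the 2 groups alone, the actin ratio, the replicate number as a block, each array left out and each further probe set. Promoter and protein sequences were not used here.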

Additional observations from a re-analysis of the deposited data

Results flagged for a closer look

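Light effects that differed between times, by limma's test of the difference itself with Benjamini-Hochberg adjustment, were found for CPLX4 and for 12 of the 93 tested list genes. At CT22 minus CT14, 11 of the 93 passed, where 2.26% of all tested probe sets passed in either direction. At CT22 minus CT6, 1 of the 93 passed, where 0.247% of all did, and at CT14 minus CT6 none of the 93 passed. These shares include dim probe sets, so they are not a matched background for list genes taken by their brightest probe set. CPLX4 gave -0.75 for the light effect at CT22 minus that at CT6. In the BMP branch the light effect at CT22 minus that at CT14 was 1.25 ± 0.20 for BAMBI, 0.98 ± 0.13 for ID3 and 0.66 ± 0.16 for ID1, so these 3 stood higher in light at CT22 relative to CT14. It was -0.76 for NBL1 and -0.57 for ID4. In the acid-base branch the same difference was 1.89 for CA7 and 1.00 for CA9, and CA10 gave -0.80 for CT22 minus CT6. In the vesicle release branch CT22 minus CT14 was -0.91 for SV2B, -0.96 for CACNA1D, -0.65 for DOC2B and -0.63 for RIMBP2. Adjusted p ranged between 0.00356 for ID3 and 0.0440 for ID1. The 11 differences between CT22 and CT14 use the CT14 groups, whose actin ratios differed. With that ratio in the fit, 23 probe sets were called at CT14, against 264 higher and 122 lower without it. BAMBI then gave -0.41 at CT14. That fit was less precise at CT14, since the ratio differed between light and dark arrays there. Its SE was 0.13 against 0.07 for SLC4A7, 0.21 against 0.11 for BMP2 and 0.21 against 0.14 for BAMBI. The part of lost precision in the lower count was not tested. Of the differences named here, only that of CPLX4 was run under the alternatives. The differences of the 3 members that involve CT14 were not tested, because CT14 chose them.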

How the results depend on the processing

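Each value here is log2 with limma's adjusted p where a test was made. In the values as deposited, where the median of all tested probe sets moved by 0.12 at CT14, -0.11 at CT22 and 0.28 between the dark groups, light minus dark at CT14 was 1.83 for SLC4A7, 1.99 for BMP2 and 1.64 for CPLX4, SLC4A7 at CT22 gave 0.40 (adjusted p = 0.0824), and CT22 dark minus CT6 dark of SLC4A7 turned to 0.28. With arrays centred on their median, SLC4A7 and BMP2 at CT6 passed with 0.49 and 0.56, SLC4A7 between the dark groups turned to 0.068 and CPLX4 at CT22 to 0.0040. With the actin ratio, CT14 gave 1.78 for SLC4A7 and 1.36 for CPLX4, and 23 probe sets were called at CT14, against 264 higher and 122 lower without it. The SE at CT14 was larger with the ratio, 0.13 against 0.07 for SLC4A7 and 0.14 against 0.08 for CPLX4. Without a variance trend the calls of SLC4A7 at CT22 (0.45), CPLX4 at CT6 (0.71) and CPLX4 between the dark groups (0.47) were lost. Further probe sets of SLC4A7 gave 1.30 and 1.28 at CT14, 0.48 at CT22 (not past the threshold) and 0.39 between the dark groups, and that of BMP2 gave 1.39 there. Leaving out each array in turn, SLC4A7 between the dark groups ranged between -0.073 and 0.018, CPLX4 at CT22 between -0.080 and 0.014, and CPLX4 between the dark groups between 0.40 and 0.55. List genes past the threshold at CT6 numbered 1 as deposited, with median centring and with the 60th percentile filter, and 0 to 1 with an array left out. At CT14 they numbered 2 with median centring, that filter or the 2 groups alone, 0 without a variance trend or with the actin ratio, and 1 to 4 with an array left out, the 4 without the second CT14 dark array. At CT22 they numbered 9 as deposited, 7 with no filter, 2 without a variance trend and 4 to 15 with an array left out. Same-numbered replicates did not deviate together over all tested probe sets (r of deviations between light and dark -0.03 at CT6, 0.03 at CT14 and 0.02 at CT22). A pairing by number that acts on some genes only would not show in these values. With the replicate number as a block SLC4A7 at CT22 kept its call (0.45, adjusted p = 0.00448), no call of the probe sets that stand for the 3 genes changed, and 42, 353 and 758 probe sets were called at CT6, CT14 and CT22. The cause of these changes was not tested. Dim probe sets, with 2 arrays per group, limit what can be called.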
